A study of Mus musculus with 12 samples.

Results

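Cathepsins are the main protein-cutting enzymes of the lysosome, and legumain is the lysosomal protease that cuts after asparagine. The 10 genes described here were taken by their symbols: Ctsa, Ctsb, Ctsc, Ctsd, Ctsh, Ctsk, Ctsl, Ctss, Ctsz and Lgmn, out of 40853 gene symbols measured. Ctss was in part chosen by its measured level, which was higher in knockout than in wild-type microglia, so for that comparison its values are given as a description, with no test. RNA had been sequenced from microglia, the resident macrophages of the brain, and from astrocytes, both sorted by flow cytometry from whole brains of mice aged 8 to 9 weeks. All mice had received lipopolysaccharide (LPS, a bacterial cell wall component) at 1 mg/kg into the peritoneum 20 h earlier, and untreated mice were not analysed here. The mice were wild type (WT) or labelled KPNA4 KO, a knockout of the gene Kpna4, which encodes a nuclear import receptor. The sources used here state neither which stretch of it is missing nor whether the knockout covers all cells. With 3 libraries for each cell type and genotype there were 4 groups. By the animal numbers, 6 animals gave 1 library of each cell type, so a replicate number in the text is an animal within its genotype.

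Most cathepsins are made as inactive precursors, reach the lysosome on mannose 6-phosphate receptors, and are switched on there by acid and by cuts from other proteases, legumain among them. Cystatins inhibit the cysteine cathepsins and legumain. In macrophages and microglia these enzymes break down engulfed material, trim the invariant chain of MHC class II molecules and cut endosomal Toll-like receptors into their signalling form. Their genes belong to a lysosomal programme that the MiT/TFE transcription factors drive through the promoter motif CACGTG.

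The library totals were 10.3 to 14.5 M counts in microglia and 10.7 to 15.6 M in astrocytes. Levels are given as CPM, counts scaled to the same total in every library. The defining markers were highest in the labelled types: 8 microglia markers summed to 10632 to 13608 CPM in microglia and 92.4 to 381 CPM in astrocytes, while 8 astrocyte markers summed to 318 to 698 CPM in microglia and 14759 to 19824 CPM in astrocytes. Markers of other cells were found too: in the astrocyte libraries those of oligodendrocytes summed to 772 to 3807 CPM, of choroid plexus and ependyma to 691 to 1237 CPM and of mural cells to 191 to 281 CPM. Kpna4 itself was at 67.9 to 96.4 CPM in microglia WT and 59.8 to 78.6 CPM in microglia KO, and at 40.1 to 57.6 CPM in astrocytes WT and 43.8 to 80.2 CPM in astrocytes KO. The genotypes overlapped in both cell types, and these whole-gene values do not check the genotype labels. The labels do not say whether libraries of a group differ in batch. A p-value weighs a difference against the variation between libraries, here from 3 animals per genotype. In the main fits of all 12 libraries both libraries of an animal count separately, without an animal term.

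Promoters of 4 of these genes are shown, 3 as examples of matches to the motifs searched and that of Ctsk, without a match, as the neighbour of Ctss. They were read from RefSeq (build GRCm38.p6), which held 10 promoters for 8 of the 10 genes. Each line is the 250 bases before the gene's start, 5′ to 3′ on the gene's strand, with matches to CACGTG, or to a pair of GAAA runs 2 bases apart, in capitals. Ctsd and the second start of Ctsa stand for the CACGTG motif, and Ctss and Ctsk are neighbours on chromosome 3 with a high and a near-zero level in microglia.
Ctsd, chr7:142387828-142388077, minus strand: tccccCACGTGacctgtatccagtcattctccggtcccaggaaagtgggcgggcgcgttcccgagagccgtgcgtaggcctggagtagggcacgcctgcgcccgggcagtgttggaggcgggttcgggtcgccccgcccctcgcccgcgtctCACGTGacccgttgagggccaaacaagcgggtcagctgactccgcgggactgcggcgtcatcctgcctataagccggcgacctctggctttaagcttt
Ctsa, chr2:164833523-164833772, plus strand: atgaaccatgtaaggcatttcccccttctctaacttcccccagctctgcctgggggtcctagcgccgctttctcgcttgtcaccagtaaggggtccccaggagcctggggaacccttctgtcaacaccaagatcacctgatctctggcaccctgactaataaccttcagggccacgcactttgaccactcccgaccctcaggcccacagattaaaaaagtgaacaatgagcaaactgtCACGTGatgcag
Ctss, chr3:95526536-95526785, plus strand: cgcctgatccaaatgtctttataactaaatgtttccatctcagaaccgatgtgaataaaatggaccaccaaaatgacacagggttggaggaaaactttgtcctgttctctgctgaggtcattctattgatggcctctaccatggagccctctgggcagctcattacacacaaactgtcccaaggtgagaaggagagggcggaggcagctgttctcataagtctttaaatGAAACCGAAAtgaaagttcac
Ctsk, chr3:95498960-95499209, plus strand: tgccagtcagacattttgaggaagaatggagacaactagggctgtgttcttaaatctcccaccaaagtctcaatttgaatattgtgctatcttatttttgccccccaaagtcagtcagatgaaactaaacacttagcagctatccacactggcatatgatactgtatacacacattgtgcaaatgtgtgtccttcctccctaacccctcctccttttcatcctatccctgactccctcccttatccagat

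Both strands of each promoter were searched, and CACGTG reads the same on both. CACGTG was found in 4 of the 10 promoters (Ctsd, the second start of Ctsa, a second start of Lgmn and Ctsl), against 6.02% of the 32851 promoters in the table. In Ctsd it began 245 and 98 bases before the start, and in Ctsa 12 bases before the start. The longer form TCACGTGA, which contains CACGTG, was found in 2 of the 10 (Ctsd and Ctsa), against 0.785% of all promoters. The core of the interferon-response motif, GAAA followed 2 bases later by GAAA, was found in 1 of the 10, beginning 21 bases before the Ctss start, against 2.98% of all promoters. It was searched after the sequences had been seen. The PU.1 motif GAGGAAGT was found in 1 of the 10 (Ctsc, on the other strand), against 2.44%, and the Ets-IRF motif, GGAA followed 2 bases later by GAAA, in 0 of the 10, against 2.30%. A match is a description of letters, and binding was not measured.

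Ctss encodes cathepsin S, a cysteine endopeptidase that trims the invariant chain in antigen-presenting cells and stays active at neutral pH. In microglia it was at 3793, 4429 and 5520 CPM in WT replicates 1 to 3 and at 6809, 5348 and 6607 CPM in KO replicates 1 to 3. In astrocytes it was at 182, 59.8 and 115 CPM in WT and at 149, 91.7 and 116 CPM in KO. All 6 microglia libraries lay far above all 6 astrocyte libraries, and KO replicate 2 fell below WT replicate 3 in microglia.

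Ctsd encodes cathepsin D, the aspartic endopeptidase of the lysosome. Its microglia libraries held 2344, 1661 and 2800 CPM in WT and 1704, 2210 and 2513 CPM in KO. Its astrocyte libraries held 219, 155 and 269 CPM in WT and 201, 172 and 268 CPM in KO. The genotypes overlapped in both cell types, and WT replicate 2 was the lowest library within each cell type.

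Ctsb and Ctsl encode the broadly acting cysteine proteases cathepsin B and cathepsin L. Ctsb was at 1206, 1343 and 1728 CPM in microglia WT, 1224, 1458 and 1624 in microglia KO, 365, 250 and 343 in astrocytes WT and 339, 312 and 330 in astrocytes KO. Ctsl was at 667, 744 and 887 CPM in microglia WT, 908, 974 and 1081 in microglia KO, 161, 140 and 137 in astrocytes WT and 175, 150 and 153 in astrocytes KO. Ctsb overlapped between the genotypes everywhere, whereas for Ctsl all 3 microglia KO libraries lay above all 3 microglia WT libraries.

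Lgmn encodes legumain. Its level was 2567, 2036 and 2415 CPM in microglia WT and 2173, 2218 and 2625 CPM in microglia KO. In astrocytes it was 154, 98.6 and 120 CPM in WT and 144, 115 and 143 CPM in KO. The genotypes overlapped in both cell types.

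Ctsc encodes cathepsin C, a dipeptidyl peptidase that activates granule serine proteases. Ctsc was at 713, 901 and 849 CPM in microglia WT and 1224, 1038 and 1154 CPM in microglia KO, with no overlap. In astrocytes it was at 43.6, 17.7 and 19.4 CPM in WT and 38.9, 17.7 and 25.2 CPM in KO, so replicate 1 was the highest library of each genotype.

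Ctsh encodes the aminopeptidase cathepsin H, Ctsz a carboxypeptidase also called cathepsin X, and Ctsa a serine carboxypeptidase that shields the enzymes beta-galactosidase and neuraminidase. Ctsh ranged from 312 to 351 CPM in microglia WT, 327 to 445 in microglia KO, 20.7 to 26.8 in astrocytes WT and 27.5 to 31.5 in astrocytes KO. Ctsz ranged from 733 to 861 CPM in microglia WT, 788 to 912 in microglia KO, 45.5 to 86.6 in astrocytes WT and 45.6 to 61.2 in astrocytes KO. Ctsa ranged from 391 to 465 CPM in microglia WT, 361 to 464 in microglia KO, 55.6 to 81.2 in astrocytes WT and 64.7 to 80.9 in astrocytes KO. The genotypes overlapped for these 3 genes, except that the 3 astrocyte KO libraries of Ctsh lay above the 3 WT libraries.

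Ctsk encodes cathepsin K, the collagen-cutting enzyme of osteoclasts. It stood at 2, 0 and 1 counts in microglia WT and at 0, 3 and 1 counts in microglia KO. In astrocytes it had 3, 0 and 15 counts in WT and 7, 23 and 27 counts in KO. None of the microglia libraries exceeded 3 counts, the limit that a count of 0 allows. The neighbouring Ctss had 49368 to 95932 counts in the same microglia libraries. In the GRCm38.p6 annotation only the non-coding Gm40096 lies between these genes.

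**Figure D1:**
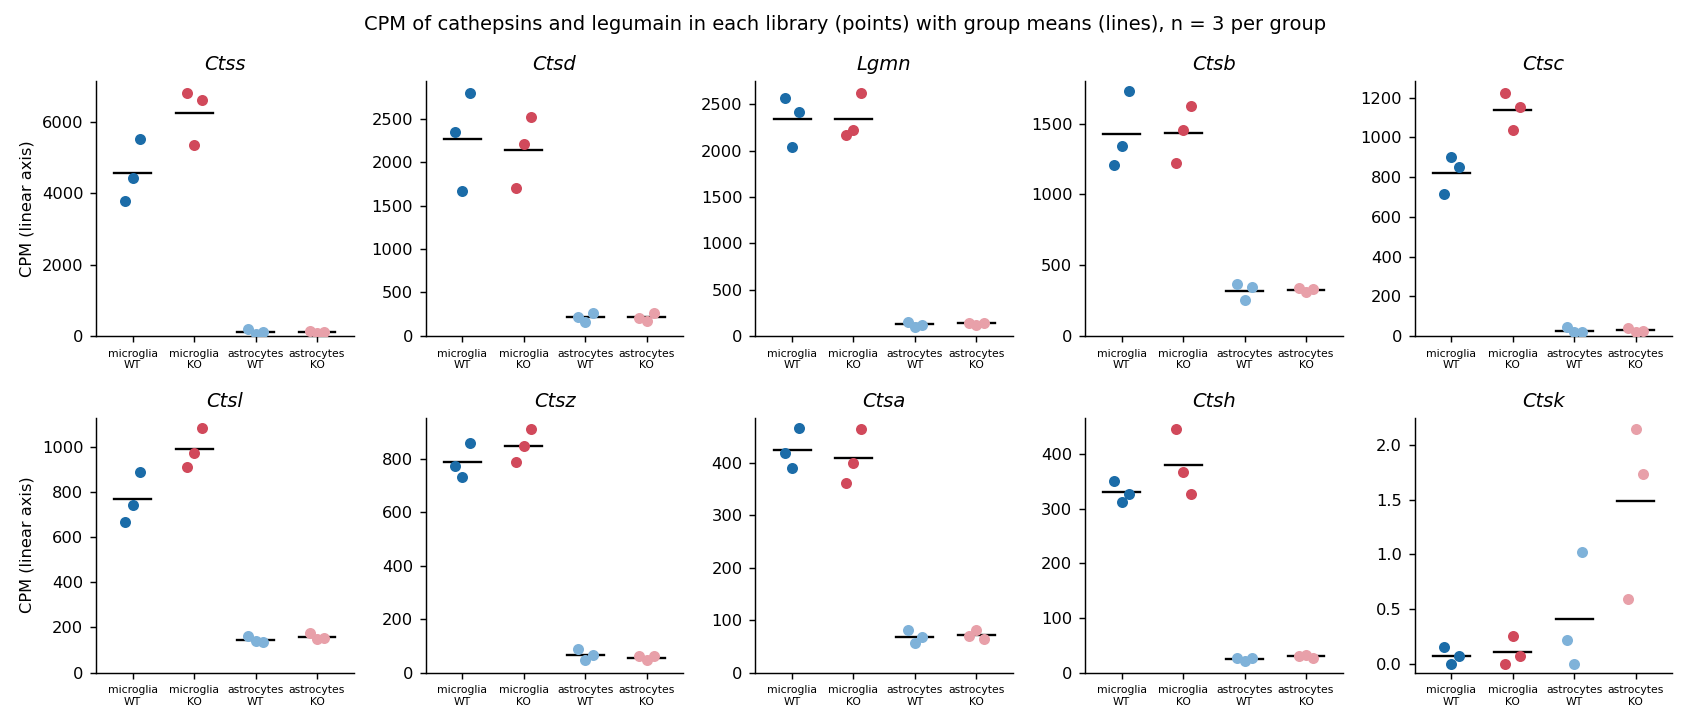
Level of each gene in CPM (linear axes, a separate scale for each gene) in the 12 libraries, shown as points by cell type and genotype with the group mean as a line. Of the 10 genes, 9 sat far higher in microglia than in astrocytes, Ctsk was at 2.14 CPM or less everywhere, and the microglia KO libraries of Ctsc and Ctsl lay above the WT libraries.

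The sources used here do not state strand use in the counting, so overlapping genes could share reads. In the GENCODE annotation of GRCm38, 13.5% of the exon bases of Ctsa overlap Pltp on the opposite strand and 8.82% overlap Neurl2. Pltp was at 5.02 to 28.5 CPM in microglia and 137 to 420 CPM in astrocytes. Likewise 16.3% of the exon bases of Ctsb overlap Fdft1, which was at 8.52 to 20.6 CPM in microglia and 81.7 to 140 CPM in astrocytes. In astrocytes the levels of Ctsa and Ctsb may therefore include reads of these partners, and this was not tested.

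Microglia and astrocytes were compared over all 12 libraries, with log2 fold changes as microglia over astrocytes. Of the 10 genes, 9 were higher in microglia and Ctsk was lower at an adjusted p under 0.05 in edgeR's quasi-likelihood test. Over the 17294 genes tested, 28.2% were called higher in microglia and 36.4% lower. Fewer cells of a type and less RNA per cell cannot be told apart in such bulk libraries.

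The size of the difference spread over a wide range. Ctss was higher by 5.22 (SE 0.26, edgeR adjusted p = 5.0e-10), a 37.3-fold difference. Ctsc followed at 4.89 (SE 0.25, edgeR adjusted p = 6.8e-10), or 29.6-fold. Only 2.61% of all tested genes had a larger log2 fold change than Ctss and 3.35% a larger one than Ctsc. The next genes were Lgmn at 3.90 (SE 0.17), Ctsz at 3.48 (SE 0.17), Ctsh at 3.43 (SE 0.16) and Ctsd at 3.10 (SE 0.20). The smallest differences among the 9 were those of Ctsa at 2.27 (SE 0.17), Ctsl at 2.22 (SE 0.14) and Ctsb at 1.86 (SE 0.16), a 3.63-fold difference. The adjusted p of edgeR lay between 1.9e-10 and 8.4e-08 for the 9 genes. In this order Ctsz and Ctsh, and likewise Ctsa and Ctsl, differed from each other by 0.05, less than their SEs. All 6 microglia libraries exceeded all 6 astrocyte libraries for each of the 9 genes, as they did for 24.9% of all genes tested.

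The median log2 fold change of all genes was -0.19 with TMM scaling and 0.09 with library totals. Over all genes, 4877 were called higher in microglia and 6289 lower with TMM, and 5809 and 5520 with library totals. All 9 genes stayed higher in microglia under each scaling tried. The listed genes described further below were called with TMM scaling, and their calls under other scalings are not given here.

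Ctsk was lower in microglia, at -3.24 on the log2 scale (SE 1.25, edgeR adjusted p = 0.0341), on 7 counts summed over 6 microglia libraries and 75 over 6 astrocyte libraries. The call was lost without any 1 of the 6 animals, where edgeR's adjusted p was 0.0566 to 0.239 and the log2 fold change -3.82 to -2.24. With the animal as a block edgeR's adjusted p was 0.128. Markers of fibroblasts, which can make cathepsin K, moved with the same contrast: 5 of them summed to 77.7 to 140 CPM in astrocytes and 7.58 to 21.5 CPM in microglia, with Dcn or Lum at 0 in 4 microglia libraries and Lum at 0 in 1 astrocyte library. The 5 mural cell markers moved likewise, at 191 to 281 CPM in astrocytes and 4.68 to 21.8 CPM in microglia, with Kcnj8 or Acta2 at 0 in 3 microglia libraries. Within astrocytes, KO replicate 2 had the highest Ctsk (2.14 CPM) and the lowest sums, 77.7 CPM for fibroblasts and 191 CPM for mural cells. WT replicate 2 had 0 Ctsk counts, with sums of 110 CPM for fibroblasts and 281 CPM for mural cells. KO replicate 3, with Ctsk at 1.73 CPM, had the highest fibroblast sum, 140 CPM. The part of these cells in the Ctsk result was not tested.

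The level in an astrocyte library can also be read as a percentage of the mean over the 6 microglia libraries. The 8 microglia markers summed gave 1.79% (mean of 6 astrocyte libraries, range 0.768% to 3.17%). Ctss gave 2.20% (range 1.10% to 3.36%) and Ctsc 2.77% (range 1.80% to 4.45%). The single markers had means of 1.54% for Fcrls to 3.34% for Aif1, and those of Ctss and Ctsc fell within that span.

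The other 7 genes stood higher on this scale. The mean was 5.52% for Lgmn, 7.46% for Ctsz, 7.63% for Ctsh and 9.70% for Ctsd. It reached 16.8% for Ctsa, 17.4% for Ctsl and 22.6% for Ctsb. In each astrocyte library all 7 exceeded the summed markers of that library. Astrocytes WT replicate 1 had the highest marker sum, at 381 CPM, and the highest Ctss, Ctsc, Lgmn, Ctsz, Ctsa and Ctsb. Astrocytes WT replicate 2 had the lowest marker sum, at 92.4 CPM, and the lowest Ctss, Lgmn, Ctsz, Ctsh, Ctsd, Ctsa and Ctsb. What carried-over microglia add to the astrocyte levels was not tested.

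**Figure D2:**
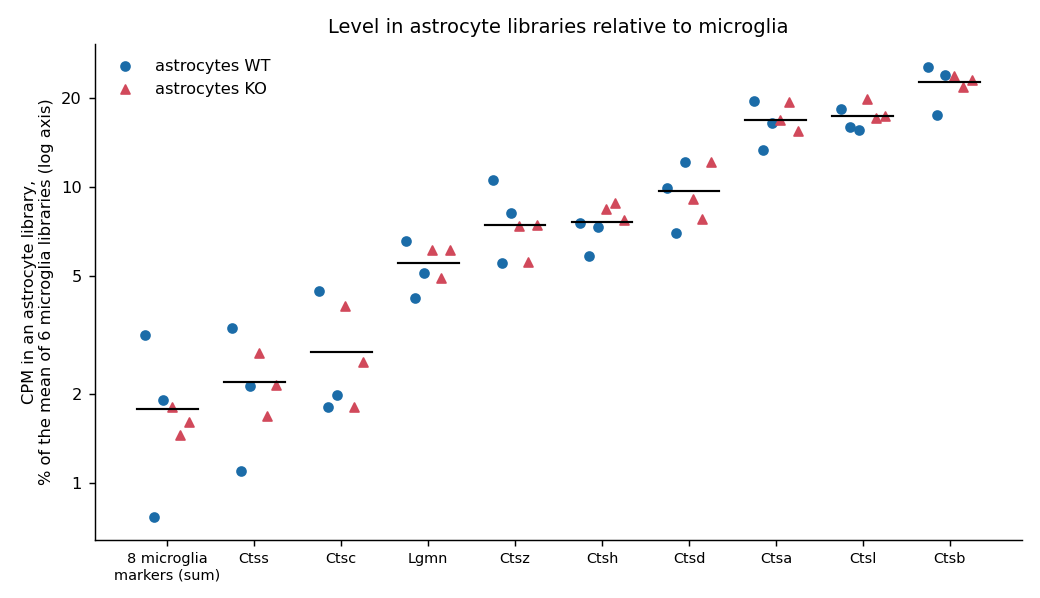
Level in each of the 6 astrocyte libraries (circles WT, triangles KO) as a percentage of the mean of the 6 microglia libraries, on a log axis, with the mean as a line. Ctss and Ctsc lay near the 8 microglia markers at 1.79%, while Ctsb, Ctsl and Ctsa averaged 16.8% to 22.6%.

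Levels of different genes were compared per kilobase of the longest well-supported transcript. In microglia WT the order was Ctss (3381 ± 644 CPM per kb, SD, n = 3), Lgmn (1176 ± 138), Ctsd (1066 ± 269), Ctsz (548 ± 45.2), Ctsl (389 ± 56.6), Ctsb (301 ± 57.1), Ctsc (255 ± 30.1), Ctsh (204 ± 12.1), Ctsa (168 ± 14.9) and Ctsk (0.050 ± 0.050). The ranges of Lgmn and Ctsd overlapped, as did those of Ctsl and Ctsb and those of Ctsb and Ctsc. In microglia KO Ctsc (354 ± 29.1 CPM per kb) stood above Ctsb (303 ± 42.3), with overlapping ranges, and the other places were as in WT.

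In astrocytes WT the first places per kilobase were Ctsd (101 ± 26.9 CPM per kb, SD, n = 3), Ctss (87.8 ± 45.1), Ctsl (74.0 ± 6.78), Ctsb (67.4 ± 12.9), Lgmn (62.5 ± 14.2) and Ctsz (46.1 ± 14.3). Each of these overlapped with its neighbour. Ctsa (27.0 ± 5.05), Ctsh (15.1 ± 2.03), Ctsc (8.36 ± 4.50) and Ctsk (0.274 ± 0.358) followed. The order in astrocytes KO was the same. The places depended on the length used. With all exons of a gene counted, Ctsl went from place 5 to 8 in both microglia groups, at 124 CPM per kb in WT and 160 in KO, and from place 3 to 6 in both astrocyte groups. Ctsc (214 CPM per kb) then stood below Ctsb (303) and Ctsh (235) in microglia KO.

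Ctss alone made up 45.0% ± 3.98 (SD, n = 3) of the summed CPM per kb of the 10 genes in microglia WT and 51.6% ± 3.99 in microglia KO. In astrocytes it made up 17.1% ± 5.17 in WT and 17.4% ± 2.67 in KO. Ctsb made up 3.39% ± 0.459 in microglia KO and 13.9% ± 1.01 in astrocytes KO. Ctsl made up 5.19% ± 0.303 in microglia WT and 15.6% ± 3.43 in astrocytes WT, and 1.76% and 5.79% when all exons of the gene were counted in its length. Of all counts in a library, the 10 genes took 1.37% ± 0.183 in microglia WT, 1.59% ± 0.125 in microglia KO, 0.111% ± 0.0244 in astrocytes WT and 0.114% ± 0.0104 in astrocytes KO (SD, n = 3 each). Ctss is part of each of these shares, and its higher level in microglia KO entered its choice. The differences between microglia WT and KO given here restate that choice in part and have no test.

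**Figure D3:**
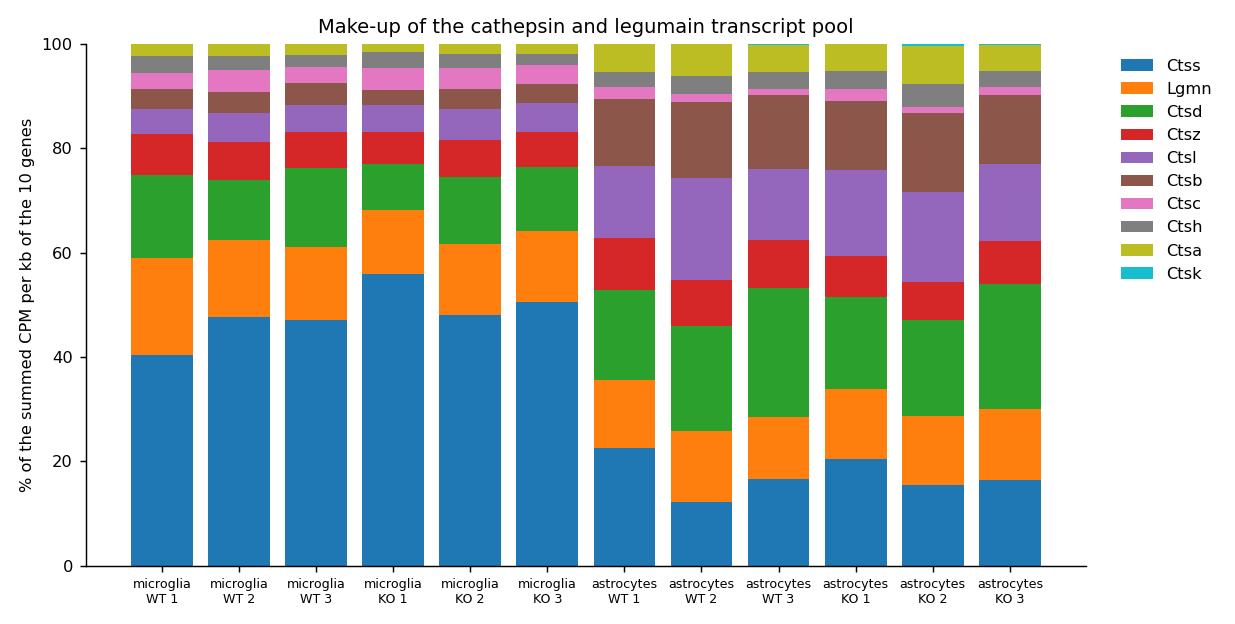
Make-up of the summed CPM per kilobase of the 10 genes in each library, in percent. Ctss filled 40.4% to 55.9% of the bar in the microglia libraries and 12.2% to 22.5% in the astrocyte libraries. Ctsd, Ctsl and Ctsb took a larger share in astrocytes than in microglia. Lgmn averaged 15.8% and 13.1% in microglia WT and KO, and 12.8% and 13.5% in astrocytes WT and KO. All shares in microglia rest in part on the Ctss values that entered its choice.

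The comparison of KO with WT asks whether the levels of these genes after LPS differ between the genotypes. In microglia, Ctsc and Ctsl had the largest log2 fold changes of the 8 genes tested, of which 4 lay above 0 and 4 below. None of the 8 was called, nor was any of the 14191 genes in the test (0%). Ctsc averaged 821 ± 96.9 CPM in the WT and 1139 ± 93.8 CPM in the KO libraries (SD, n = 3 each). Its log2 fold change was 0.45 (SE 0.18, unadjusted p = 0.0272, edgeR adjusted p = 0.620). Ctsl averaged 766 ± 112 CPM in WT and 988 ± 87.1 CPM in KO. Its log2 fold change was 0.35 (SE 0.18, unadjusted p = 0.0797, edgeR adjusted p = 0.725). Ctsc and Ctsl were the genes of the 8 whose groups did not overlap, with KO higher, as was so for 6.53% of the 14191 genes tested.

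The other 6 tested genes lay closer to 0, with log2 fold changes of 0.18 for Ctsh (SE 0.19), 0.08 for Ctsz (SE 0.18), -0.01 for Ctsb (SE 0.19), -0.03 for Lgmn (SE 0.18), -0.08 for Ctsa (SE 0.18) and -0.10 for Ctsd (SE 0.22). EdgeR called 0% of the 14191 genes (1053, or 7.42%, had an unadjusted p under 0.05), DESeq2 called 41 and voom 0. None of the 8 genes was called by any of these tools. Ctsk was below the count filter.

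Ctss averaged 4581 ± 873 CPM in microglia WT and 6255 ± 792 CPM in microglia KO (SD, n = 3 each), with a fitted log2 fold change of 0.43. This difference entered the choice of the gene and has no test. Leaving out each replicate in turn gave 0.31 to 0.57.

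Markers of other cells were present in the microglia libraries, and the ranges of the genotypes overlapped for each list given here. The 6 markers of choroid plexus and ependyma summed to 846 to 2129 CPM in WT and 344 to 868 CPM in KO, and those of endothelium to 30.2 to 69.2 CPM in WT and 25.1 to 31.6 CPM in KO. Oligodendrocyte markers (6) summed to 252 to 1688 CPM in WT and 284 to 719 CPM in KO, and the 8 astrocyte markers to 318 to 698 CPM in WT and 344 to 372 CPM in KO. The 6 markers of border-associated macrophages summed to 170 to 373 CPM in WT and 226 to 356 CPM in KO, and the 8 microglia markers to 11076 to 13573 CPM in WT and 10632 to 13608 CPM in KO. The 4 monocyte markers summed to 9.36 CPM or less, and the 4 lymphocyte markers were at 0 in 5 of the 6 libraries. The part of these cells in the Ctsc, Ctsl and Ctss values was not tested.

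**Figure D4:**
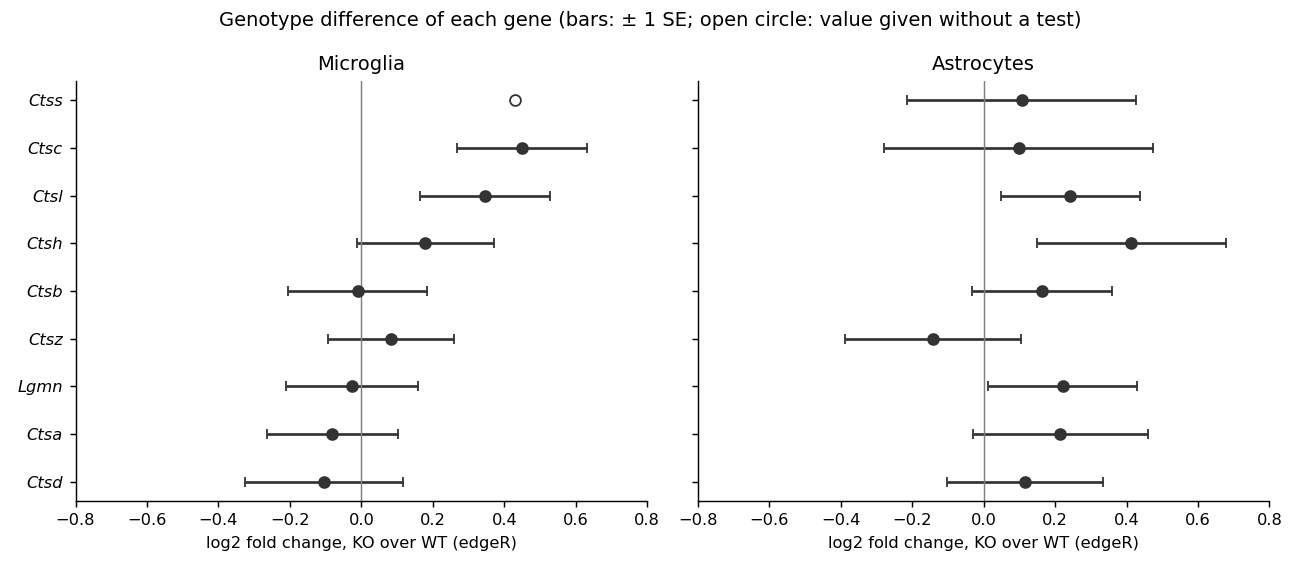
Log2 fold change of KO over WT with 1 SE on each side in microglia (left) and astrocytes (right) for 9 of the genes, without Ctsk. In microglia Ctsc stood at 0.45 and Ctsl at 0.35 and the open circle for Ctss, which has no test, at 0.43, and none of the tested genes passed the adjusted threshold in either cell type.

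Ratios between these genes within a library do not depend on its total. They were chosen after the values had been seen, so they carry no test. How often ratios of other genes separate the genotypes was not computed. Ctsl over Ctsb was 0.553, 0.554 and 0.513 in microglia WT and 0.742, 0.668 and 0.666 in microglia KO. The genotypes did not overlap in this ratio, as they did not in the CPM of Ctsl alone. In astrocytes the same ratio was 0.441, 0.559 and 0.399 in WT and 0.515, 0.480 and 0.463 in KO, with overlap.

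Ctsc over Ctsb was 0.591, 0.671 and 0.491 in microglia WT and 1.00, 0.712 and 0.711 in microglia KO. Here too the genotypes did not overlap, as for the CPM of Ctsc alone. Ctsb over the summed microglia markers was 0.0961, 0.121 and 0.127 in WT and 0.115, 0.137 and 0.119 in KO, with overlap.

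Ratios with Ctss on top use the values that in part chose that gene, so they describe the choice further. Ctss over Lgmn was 1.48, 2.18 and 2.29 in microglia WT and 3.13, 2.41 and 2.52 in microglia KO. Ctss over the summed microglia markers was 0.302, 0.400 and 0.407 in WT and 0.637, 0.503 and 0.486 in KO. Ctss over Ctsd was 1.62, 2.67 and 1.97 in WT and 3.996, 2.42 and 2.63 in KO, and this one overlapped, as did the CPM of Ctss itself.

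**Figure D5:**
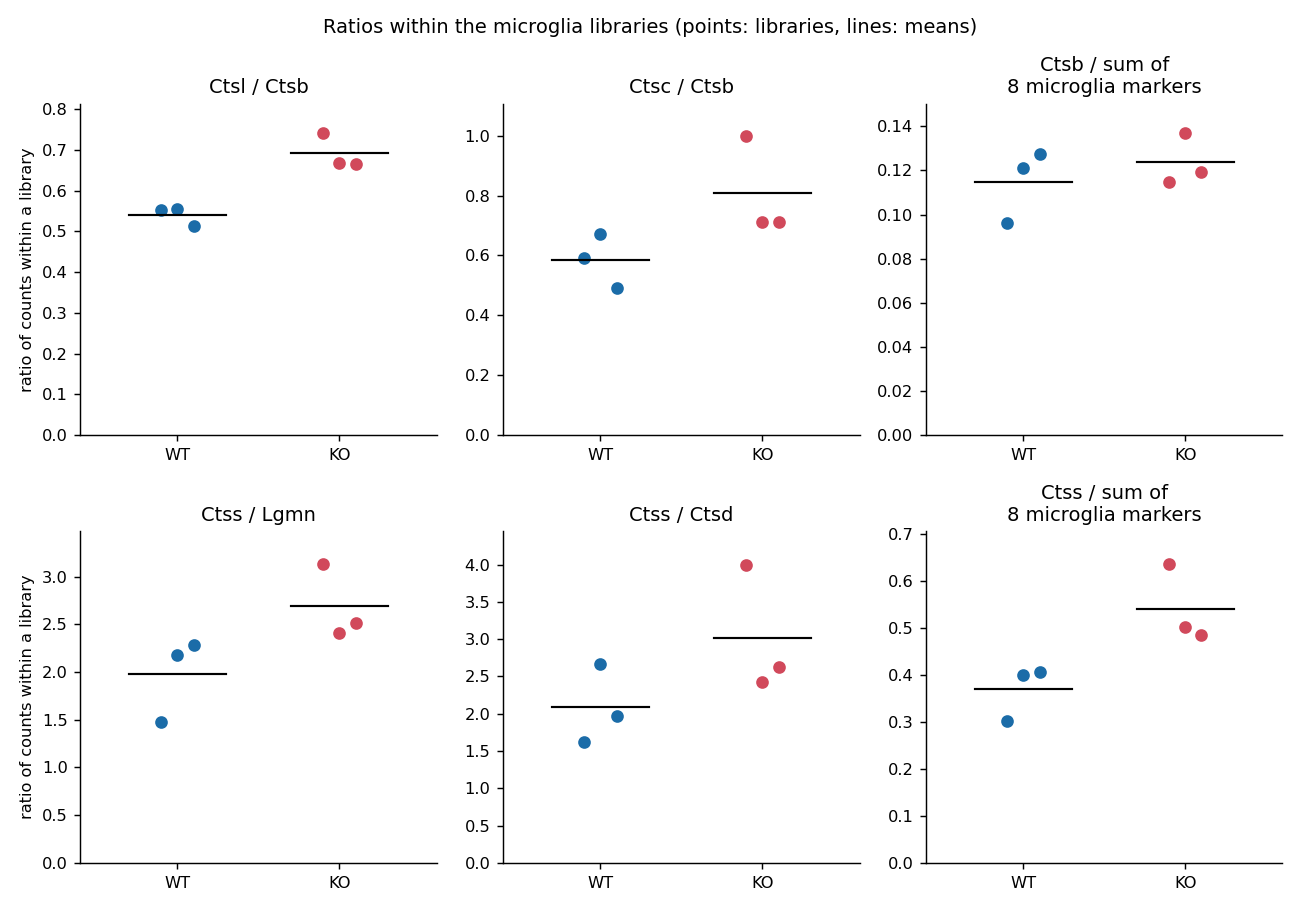
The 6 ratios of counts computed within each microglia library (points) with group means (lines), axes from 0. The genotypes overlapped for Ctsb over the microglia markers and for Ctss over Ctsd. Ctsl over Ctsb was at 0.666 to 0.742 in KO against 0.513 to 0.554 in WT. All 6 ratios were chosen after the values had been seen, and those with Ctss on top reuse values that in part chose that gene.

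In astrocytes none of the 10 genes was called between the genotypes, and edgeR's adjusted p was 0.999 for all. EdgeR called 0% of the 15755 genes tested (373, or 2.37%, had an unadjusted p under 0.05), DESeq2 called 4 and voom 0. Ctsh averaged 24.5 ± 3.28 CPM in the WT and 29.6 ± 2.01 CPM in the KO libraries (SD, n = 3 each), a log2 fold change of 0.41 (SE 0.26). It was the only gene of the 10 whose groups did not overlap, as was so, with KO higher, for 2.39% of the genes tested.

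The remaining log2 fold changes in astrocytes were 0.24 for Ctsl, 0.22 for Lgmn, 0.21 for Ctsa, 0.16 for Ctsb, 0.12 for Ctsd, 0.11 for Ctss, 0.10 for Ctsc and -0.14 for Ctsz, with SEs of 0.19 to 0.38. Ctsk had 2.06 with an SE of 1.58, on 18 counts in WT and 57 in KO. The values of Ctss and Ctsc rested on single libraries: without WT replicate 1, the library richest in microglia markers, they were 0.57 and 0.65, and without WT replicate 2 they were -0.19 and -0.11.

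The genotype effects of both cell types were compared as a difference, astrocytes minus microglia. None of the 9 genes tested was called, with edgeR's adjusted p from 0.932 to 1.00, and 0% of the 17294 genes were (1102, or 6.37%, had an unadjusted p under 0.05; DESeq2 called 54 and voom 0). The difference was -0.26 (SE 0.43) for Ctsc and -0.01 (SE 0.27) for Ctsl, and that of Ctss, given without a test, was -0.23. The median over all genes was 0.16 with TMM scaling and -0.08 with library totals.

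Other genes of the pathway were taken from lists. Between the cell types, the share of members called higher in microglia differed from list to list, beside the 28.2% of all genes called higher. Of 28 other lysosomal hydrolases and cofactors, 17 were higher in microglia and 4 lower, among them Man2b1 (4.12, lysosomal alpha-mannosidase) and Grn (3.82, progranulin). All 4 MiT/TFE factors were higher, with Tfec at 3.15, Tfe3 at 2.18 and Mitf at 1.72. Tfec was scarce (SE 1.25), at 12 to 21 counts per microglia library and 0 to 7 per astrocyte library. Of 11 genes of MHC class II and the endosomal Toll-like receptors, 8 were higher and 1 lower, led by Tlr7 (5.35), Tlr9 (5.05) and Unc93b1 (5.02), which carries these receptors to endosomes.

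Transport and acidification genes were more mixed. Of 9 genes that sort enzymes to the lysosome, 5 were higher in microglia and 2 lower. Nagpa, which uncovers the mannose 6-phosphate tag, was higher by 3.10 and Gga3 by 1.58, while Igf2r, the large mannose 6-phosphate receptor, was lower at -2.75. Of 9 lysosomal membrane genes, 2 were higher (Laptm5, 5.56, and Cd68, 4.49) and 1 lower (Npc1, -0.38). Npc1 averaged 171 and 143 CPM in microglia WT and KO and 170 and 165 CPM in astrocytes WT and KO. Of 15 subunits of the vacuolar ATPase, the proton pump, 6 were higher and 4 lower, and the largest changes were Atp6v0b at 1.13, Atp6v1d at -0.99 and Atp6v0e at -0.83. The CPM of Npc1, Atp6v1d and Atp6v0e overlapped between the cell types.

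The inhibitors and the other family members split as well. Of 8 cystatin genes 3 passed the count filter, and 2 were higher in microglia: Cst7 (6.64), which encodes cystatin F, an inhibitor of cathepsin C, and Cst3 (0.73), the secreted cystatin C. Of 13 other cathepsin genes 3 passed the filter: Ctse was higher in microglia (5.36), and Ctso (-1.23) and Ctsf (-0.47) were lower. The CPM of Ctsf overlapped between the cell types. Ctse was scarce, at 0.207 to 2.26 CPM in microglia, and Cst7 had 0 to 5 counts per astrocyte library. None of the 7 serine proteases that cathepsin C activates passed the filter, and the neutrophil genes Elane and Ctsg had 0 counts in all 12 libraries.

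Between the genotypes none of these listed genes was called by edgeR, out of 82 tested in microglia and 78 in astrocytes. At an unadjusted p under 0.05, 2 were higher and 4 lower in microglia KO, and 1 was higher and 2 lower in astrocytes KO, beside 7.42% of all genes tested in microglia and 2.37% in astrocytes. DESeq2 called 1 gene, Igf2r in microglia, and voom called 0. The genes with the highest mean CPM in each list are given as examples, with log2 fold changes in microglia and then in astrocytes. Among cathepsins, Ctso had 0.27 and 0.27 and Ctsf 0.0011 and 0.42. Among inhibitors, Cst3 had 0.11 and 0.42 and Cstb 0.21 and 0.08. For sorting, Sort1 had -0.18 and -0.02 and M6pr -0.02 and 0.10, and for the transcription factors Tfe3 had 0.06 and 0.13 and Mitf -0.20 and -0.26. Among hydrolases and cofactors, Psap had -0.28 and 0.07. On the lysosomal membrane Laptm5 had 0.17 and -0.71 and Lamp1 0.18 and 0.17. The pump subunit Atp6v0a1 had 0.20 and 0.03 and Atp6v0c -0.02 and 0.04. Unc93b1 had -0.12 and -0.08 and Tlr7 0.61 and -0.73.

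The genes whose pattern over the 12 libraries was most like that of each member were found by the distance between log2 CPM values centred on each gene, among 14762 genes, where a smaller distance means a closer pattern. Ctss was nearest to Itgb2 (0.82), Ms4a6d (0.92) and Cx3cr1 (0.95), and Ctsc to Ifi204 (0.89), P2ry12 (0.91) and Apbb1ip (0.93). Lgmn was nearest to Grn (0.76), Lrrk1 (0.80) and Gusb (0.85), Ctsd to Cmtm6 (0.79), Etv6 (0.81) and Sall1 (0.82), Ctsz to Cmtm6 (0.61), Gusb (0.68) and Edem1 (0.69), and Ctsh to Btg1 (0.63), Tpd52 (0.65) and Tanc2 (0.67). Of the microglia markers summed above, Cx3cr1 was thus among the nearest genes of Ctss and P2ry12 among those of Ctsc.

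The genes with the smaller difference between cell types had other neighbours. Ctsb was nearest to Calr (0.38), Clta (0.40) and Actb (0.44), Ctsl to Tcn2 (0.56), Ftl1 (0.59) and Actr3 (0.67), and Ctsa to Tcn2 (0.63), Ets1 (0.64) and Wasf2 (0.66). Ctsk had no close neighbour, with Mab21l1 at 2.18, Spata6 at 2.36 and Cxcl5 at 2.40. The difference between cell types dominates these distances, and the 12 libraries share it.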

How the data were processed

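RNA from sorted microglia and astrocytes had been turned into full-length cDNA (SMART-Seq HT) and Nextera libraries, per the labels' protocols, without molecular identifiers, so counts hold amplified copies and count limits cover counting error only. The authors deposited estimated counts per gene symbol, 1 table per cell type, not normalized. The submitters' processing notes name STAR 2.7.10b, RSEM 1.3.3, the build GRCm39 and limma, the last without a version or role. Between 3.44% and 5.27% of values above 0 were not whole (tolerance 0.001). They were rounded before any test. All 12 value columns matched a library by name. Pairs of libraries of 1 group gave chi-square values of 29.8 to 117 per degree of freedom, well past sampling noise, so none was taken for a repeat.

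CPM were taken per library total. KO and WT, and the cell types, were compared with edgeR 4.0.16 in R 4.3.3 (quasi-likelihood, TMM, filterByExpr with a minimum count of 10, Benjamini-Hochberg over all genes tested, called at an adjusted p under 0.05). It was fitted per cell type for KO against WT, and over all 12 libraries for the cell type contrast and the difference of genotype effects. The SE is the log2 fold change divided by the square root of F. The fits were tested on simulated counts. Alternatives were DESeq2 1.42.0, limma voom (limma 3.58.1), other scalings, no count filter, each replicate left out, a replicate block, 1 joint fit, 8 abundant non-coding transcripts left out and, chosen after seeing the data, another gene length.

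The labels' animal numbers pair each microglia library with an astrocyte library. Over all genes, the correlation of such a pair's deviations from their group means was 0.012, 0.078 and 0.096 in WT and 0.056, 0.0041 and 0.064 in KO.

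The genes, the lists and the tests were chosen with earlier results of these data known. The text names, per list, up to 3 called genes with the largest log2 fold change, or the 2 with the highest mean CPM over the 12 libraries where none was called. A listed gene that this rule names is not reported here. Nearest genes are the 3 with the smallest Euclidean distance between centred log2 CPM (prior count 2), without model names. Transcript lengths come from the GENCODE annotation of GRCm38, an older build than the counts.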

Additional observations from a re-analysis of the deposited data

How the results depend on the processing

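The counts of called genes among the cathepsins and legumain stayed at 0 in microglia, in astrocytes and for the difference of genotype effects under every alternative run, and at 9 or 10 between the cell types. The 9 genes higher in microglia kept that call throughout. Ctsk lost its call with no count filter (log2 fold change -3.26), with the animal as a replicate block (-3.20) and without any 1 animal (-3.82 to -2.24).

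Values near 0 changed sign. In microglia Ctsb became 0.0095 with library totals and Ctsz -0.013 in 1 fit of all 12 libraries. With each replicate left out the microglia values ran from -0.16 to 0.012 for Ctsa, -0.12 to 0.13 for Ctsb, -0.28 to 0.057 for Ctsd and -0.11 to 0.053 for Lgmn. In astrocytes library totals gave -0.0031 for Ctsd and -0.00071 for Ctss. With each replicate left out the astrocyte values ran from -0.031 to 0.36 for Ctsa, -0.16 to 0.65 for Ctsc, -0.040 to 0.26 for Ctsd, -0.19 to 0.57 for Ctss and -0.33 to 0.11 for Ctsz. The differences of genotype effects ran from -0.015 to 0.44 for Ctsb, -0.72 to 0.32 for Ctsc, -0.23 to 0.11 for Ctsl, -0.46 to 0.081 for Ctsz and -0.70 to 0.30 for Ctss. The cause was not tested.

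Over all genes, calls in microglia went from 0 to 41 with DESeq2, 121 without a count filter, 41 in 1 joint fit and 30 with the replicate number as a block. In astrocytes they went from 0 to 4 with DESeq2 and 17 without a filter, with 0 under the block, and for the difference of effects to 54 and 160. WT and KO libraries of the same number had correlations of 0.14, 0.051 and 0.19 for microglia and of -0.022, 0.042 and 0.23 for astrocytes. Pairs of different number had -0.16 to 0.027 in microglia and -0.16 to 0.10 in astrocytes. In microglia each same-number pair thus lay above every pair of different number. The labels do not say what libraries of the same number share, and this was not tested. Among these genes the block changed no call but that of Ctsk.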

Other observations

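Igf2r encodes the large mannose 6-phosphate receptor, which carries newly made cathepsins to the lysosome, and it was singled out after its values had been seen. In microglia it was at 14.4, 18.3 and 34.5 CPM in WT and at 2.91, 3.93 and 8.13 CPM in KO. All 3 KO libraries lay below all 3 WT libraries, and the share of all genes that did so was not computed. The log2 fold change was -2.17 (SE 0.44), with an unadjusted p of 0.000234 and an adjusted p of 0.394 in edgeR. The call depended on the tool and the fit: the adjusted p was 0.00458 in DESeq2, 0.538 in voom, 3.3e-05 without a count filter, 0.0116 with the replicate number as a block and 0.0385 in the joint fit of all 12 libraries, and the log2 fold change was -2.69 to -1.74 with each replicate left out. Over all genes, calls in microglia KO were mostly lower: 4 higher and 37 lower in DESeq2, and 11 and 110 without a count filter. The block gave 0 and 30, and the joint fit 0 and 41. In the main edgeR fit 334 genes were higher and 719 lower at an unadjusted p under 0.05. In astrocytes Igf2r was at 50.5, 51.8 and 81.4 CPM in WT and 56.6, 39.1 and 79.1 CPM in KO. Its log2 fold change there was 0.03 (SE 0.25). The difference between the cell types in this effect was 2.28 (SE 0.55), with an edgeR adjusted p of 0.337. In microglia the markers of choroid plexus and ependyma summed to 846 to 2129 CPM in WT and 344 to 868 CPM in KO, ranges that overlap, and their part was not tested. The antisense RNA Airn overlaps Igf2r, and the sources used here do not state strand use in the counting.

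Among the genes of MHC class II and the endosomal Toll-like receptors, the microglia KO libraries of Tlr7 and H2-DMa lay above the WT libraries, also singled out after their values had been seen. Of the 11 genes in that list 2 lay so, beside 6.53% of all genes tested. Tlr7, a sensor of single-stranded RNA that cathepsins cut in the endosome, was at 134, 194 and 235 CPM in WT and 299, 257 and 316 CPM in KO. H2-DMa, which loads peptides once the invariant chain is trimmed, was at 49.9, 39.6 and 73.7 CPM in WT and 81.4, 82.6 and 88.8 CPM in KO. Their log2 fold changes were 0.61 (SE 0.21, edgeR adjusted p = 0.587) and 0.61 (SE 0.23, edgeR adjusted p = 0.599), and neither passed the threshold. Other members went the other way without passing it, with -0.47 for Tlr9 (SE 0.23), -0.20 for H2-Eb1 (SE 0.66), -0.12 for Ciita (SE 1.205) and -0.12 for Unc93b1 (SE 0.19).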
